A study of Mus musculus with 9 samples.

Results

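The platelet-derived growth factor (PDGF) genes are described here across 3 populations of cells sorted from mouse fat. They comprise the ligand genes Pdgfa, Pdgfb, Pdgfc and Pdgfd, the receptor genes Pdgfra and Pdgfrb, and the receptor-like gene Pdgfrl. They were chosen by name from 20655 genes, with earlier results of these data known. All 7 were present and had an adjusted p in each comparison. Mice were C57BL/6, 12 days old and of both sexes, and their subcutaneous fat (inguinal plus axillary depots) was digested and sorted by flow cytometry, with no genotype or treatment beyond the strain in the labels. Cells positive for DPP4 (a membrane peptidase), for ICAM1 (an adhesion molecule) or for CD142 (tissue factor, encoded by F3) gave 3 bulk messenger RNA libraries each. Separate animals per library are not stated in the labels, and the p-values therefore cover only how far libraries of a population differ, which can be technical. The series title frames the work as a search for a hierarchy of mesenchymal progenitors, and each pair of populations was compared.

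PDGFs are secreted dimers that act on receptor tyrosine kinases of the cell surface and drive division and migration of mesenchymal cells. PDGF-A and PDGF-C act mainly through the alpha receptor and PDGF-D mainly through the beta receptor, while PDGF-B binds both. In fat, the alpha receptor marks fibroblastic progenitors, and the beta receptor is found on such progenitors and on the mural cells that wrap small vessels.

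Levels are fitted normalised counts per population, derived from the mean over libraries and the fold changes in the tables, each with the standard error (SE) of its log2 value. The depth of each library is unknown and values per library were not analysed here, so an overlap of single libraries between populations cannot be described. Fold changes are log2 differences with their SE from the submitters' DESeq2 fit, and a gene is called higher or lower at an adjusted p below 0.05. ICAM1+ against DPP4+ and CD142+ against DPP4+ share the DPP4+ libraries, so their values are given side by side.

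Shares of all genes are set beside the counts for scale only, since the 7 genes were chosen with earlier results of these data known. In ICAM1+ against DPP4+ cells, 5 of the 7 genes were called, beside 24.4% of all genes tested. Pdgfa, Pdgfra and Pdgfrb were higher (3 genes, beside 12.4% of all genes), and Pdgfc and Pdgfd were lower (2 genes, beside 12.0%). In CD142+ against DPP4+ cells, 5 genes were called beside 19.0% of all genes. Pdgfa, Pdgfra, Pdgfrb and Pdgfrl were higher (4 genes, beside 10.1%) and Pdgfc was lower (1 gene, beside 8.91%). In ICAM1+ against CD142+ cells, 4 genes were called beside 9.05% of all genes. Pdgfb and Pdgfc were higher (2 genes, beside 3.77%) and Pdgfd and Pdgfrl were lower (2 genes, beside 5.28%). The median log2 fold change of the 7 genes was 0.36, 0.64 and 0.23 in the same order of comparisons, beside 0.02, -0.01 and -0.00094 over all genes tested.

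**Figure D1:**
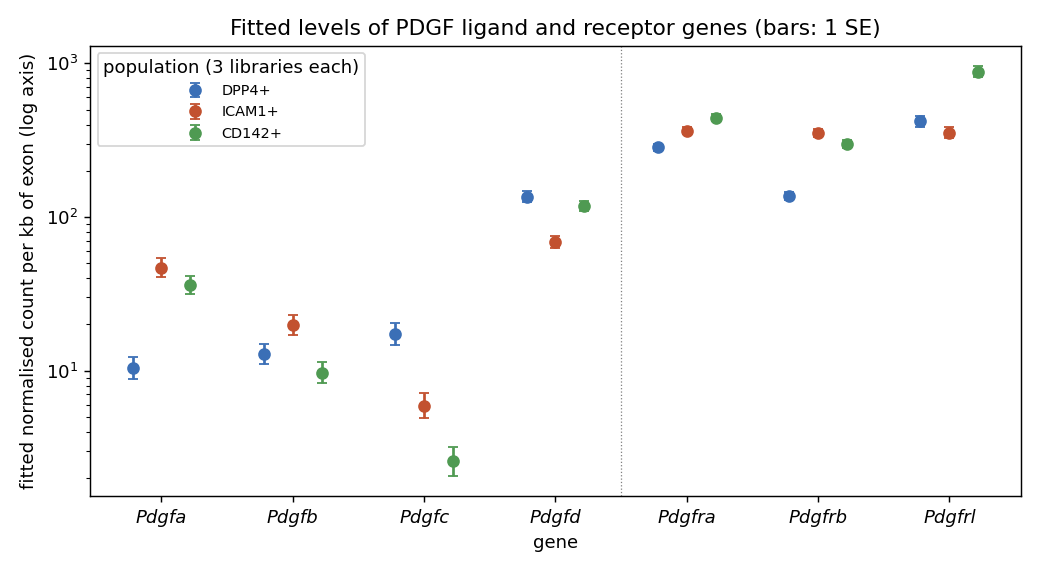
Fitted level per kilobase of annotated exon (normalised counts per kilobase, log axis) of each of the 7 PDGF genes in DPP4+, ICAM1+ and CD142+ cells, with bars of 1 SE of the log2 level. Pdgfc was at 17.3 in DPP4+ and at 2.57 in CD142+ cells, while Pdgfa was at 10.4 in DPP4+ and at 46.9 in ICAM1+ cells.

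Among the ligands, Pdgfa encodes the A chain, a ligand of the alpha receptor (ENSMUSG00000025856, mm10 chromosome 5, 138976014 to 138997370, minus strand). Its level was 32.3 (SE 0.24) in DPP4+, 146 (SE 0.20) in ICAM1+ and 113 (SE 0.20) in CD142+ cells. DPP4+ cells thus held the least Pdgfa. ICAM1+ exceeded DPP4+ cells by 2.18 ± 0.31 on the log2 scale (4.53-fold, 95% interval 2.98 to 6.87, adjusted p = 3.03e-11). CD142+ exceeded DPP4+ cells by 1.80 ± 0.31 (3.48-fold, adjusted p = 9.29e-08). Between ICAM1+ and CD142+ cells no difference was called (0.38 ± 0.28, 95% interval -0.17 to 0.92, adjusted p = 0.538). Exons of 6330403L08Rik lie opposite 26.1% of the Pdgfa exon bases, and no strand information is stated for the counting, so reads from those bases cannot be told apart. 6330403L08Rik itself was at 32.1, 84.1 and 74.1 in DPP4+, ICAM1+ and CD142+ cells and was called higher in ICAM1+ than in DPP4+ cells (1.39 ± 0.33, adjusted p = 0.000227). It was also called higher in CD142+ than in DPP4+ cells (1.21 ± 0.33, adjusted p = 0.00220). Its part in the Pdgfa values was not tested.

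RefSeq windows before the transcript start (GRCm38.p6) were at hand for Pdgfa, Pdgfc, Pdgfd and Pdgfra, that is for 4 of the 7 genes. They are shown because Pdgfa and Pdgfc differed most between populations and in opposite directions, with Pdgfd as the ligand of the highest level and Pdgfra as a receptor. Each holds the 250 bases before a start, 5′ to 3′ on the strand of the gene, and capitals mark a GC box (GGGCGG) or a TATA box (TATAAA) on either strand. The windows are chr5:138994945-138995194 (minus strand) for the outer of the RefSeq Pdgfa starts and chr3:81036166-81036415 (plus strand) for Pdgfc. For Pdgfd the window is chr9:6168236-6168485 and for Pdgfra chr5:75152001-75152250, both on the plus strand. The Pdgfa window lies inside the gene as bounded above, which starts at 138997370 on the minus strand.
Pdgfa: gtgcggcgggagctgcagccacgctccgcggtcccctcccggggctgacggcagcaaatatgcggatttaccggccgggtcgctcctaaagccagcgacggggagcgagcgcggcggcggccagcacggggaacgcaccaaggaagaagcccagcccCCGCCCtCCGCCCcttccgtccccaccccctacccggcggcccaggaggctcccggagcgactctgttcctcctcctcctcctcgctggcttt
Pdgfc: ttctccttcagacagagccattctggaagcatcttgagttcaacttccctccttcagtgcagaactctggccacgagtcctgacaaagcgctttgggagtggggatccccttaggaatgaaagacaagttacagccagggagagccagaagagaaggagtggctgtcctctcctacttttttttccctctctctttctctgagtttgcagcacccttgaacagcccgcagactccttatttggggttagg
Pdgfd: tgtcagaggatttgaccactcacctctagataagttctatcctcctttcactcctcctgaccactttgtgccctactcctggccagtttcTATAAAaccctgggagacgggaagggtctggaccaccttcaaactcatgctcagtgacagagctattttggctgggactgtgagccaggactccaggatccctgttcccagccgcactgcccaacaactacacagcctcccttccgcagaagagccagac
Pdgfra: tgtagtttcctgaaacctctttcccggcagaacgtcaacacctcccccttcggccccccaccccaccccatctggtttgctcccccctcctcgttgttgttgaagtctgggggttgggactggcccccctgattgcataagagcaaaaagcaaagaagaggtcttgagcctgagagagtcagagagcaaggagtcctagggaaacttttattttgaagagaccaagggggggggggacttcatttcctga

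The Pdgfa window was the richest in G and C of the 4 printed, at 72.4%, against 50.8% for Pdgfc, 53.6% for Pdgfd, 54.4% for Pdgfra and a median of 52.4% over 32851 windows of the same length. It holds a pair of GC boxes, at 93 to 88 and 86 to 81 bases before the start, read on the strand opposite to the gene. The inner Pdgfa start has 1 GC box, at 60 to 55 bases before it, in a window of 66.4% G and C. A GC box occurs in 32.7% of all windows. The Pdgfd window holds a TATA box at 160 to 155 bases before the start, a run of letters found in 12.4% of all windows. The letters CCAAT were searched on both strands too and occur in 33.8% of all windows, but in none of these. The Pdgfc and Pdgfra windows hold none of the 3 runs of letters. Such matches describe the windows only.

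Pdgfc encodes the C chain, a ligand of the alpha receptor that is secreted in a latent form and cut to become active (ENSMUSG00000028019, mm10 chromosome 3, 81036416 to 81214040, plus strand). Its level was 88.2 (SE 0.24) in DPP4+, 30.1 (SE 0.27) in ICAM1+ and 13.1 (SE 0.31) in CD142+ cells. Unlike for Pdgfa, DPP4+ cells held the most, while ICAM1+ stood above CD142+ cells for both genes. Pdgfc was 2.93-fold lower in ICAM1+ than in DPP4+ cells (-1.55 ± 0.36 on the log2 scale, adjusted p = 0.000176). It was 6.75-fold lower in CD142+ than in DPP4+ cells (-2.75 ± 0.39, adjusted p = 5.99e-11). ICAM1+ exceeded CD142+ cells by 1.20 ± 0.41 (adjusted p = 0.0410), a call that was lost when p-values were adjusted over every gene (0.0533). Gm16000 lies opposite 2.89% of its exon bases and was at 13.1, 2.22 and 2.45 in DPP4+, ICAM1+ and CD142+ cells.

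Pdgfd encodes the D chain, a latent ligand of the beta receptor (ENSMUSG00000032006, mm10 chromosome 9, 6168584 to 6378850, plus strand). Its level was 428 (SE 0.12) in DPP4+, 217 (SE 0.12) in ICAM1+ and 372 (SE 0.12) in CD142+ cells. ICAM1+ cells stood below both other populations, by -0.98 ± 0.17 against DPP4+ (1.97-fold lower, adjusted p = 1.18e-07) and by -0.78 ± 0.17 against CD142+ cells (1.72-fold lower, adjusted p = 0.000140). CD142+ and DPP4+ cells were not called different (-0.20 ± 0.16, 95% interval -0.52 to 0.12, adjusted p = 0.495).

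Pdgfb encodes the B chain, which endothelial cells release to recruit mural cells (ENSMUSG00000000489, mm10 chromosome 15, 79995874 to 80014977, minus strand). Its level was 53.2 (SE 0.22) in DPP4+, 82.7 (SE 0.21) in ICAM1+ and 40.5 (SE 0.22) in CD142+ cells. Only ICAM1+ against CD142+ was called of the 3 comparisons (1.03 ± 0.31, 2.04-fold, adjusted p = 0.0122), and not at an adjusted p of 0.01. ICAM1+ against DPP4+ gave 0.64 ± 0.30 (95% interval 0.04 to 1.23 before adjustment, adjusted p = 0.118), and CD142+ against DPP4+ gave -0.40 ± 0.31 (-1.01 to 0.22, adjusted p = 0.476). Endothelial markers were measured in the same libraries, 12 genes that include Pecam1 and Cdh5. Of these, 8 were called higher in ICAM1+ than in CD142+ cells (beside 3.77% of all genes), 8 were called higher in ICAM1+ than in DPP4+ cells (beside 12.4%), and none was lower in either. In CD142+ against DPP4+ cells the submitters' DESeq2 test called 0 of the 12 (beside 19.0% of all genes), and 0 had an unadjusted p below 0.05. Their summed level was 3224 in DPP4+, 5007 in ICAM1+ and 3037 in CD142+ cells, and none was at 0. Platelet markers, 4 genes, summed to 165, 185 and 136 in the same order, and none was called higher in any comparison. Of these, Pf4, Gp9 and Itga2b were highest in ICAM1+ cells, while Gp1bb was at 74.6, 38.2 and 43.0 in that order. Exons of other genes on the same strand overlap 92.9% of the Gp1bb exon bases. In bulk samples, fewer cells of a type and less RNA per cell cannot be told apart, and the part of endothelial cells in the Pdgfb values was not tested.

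**Figure D2:**
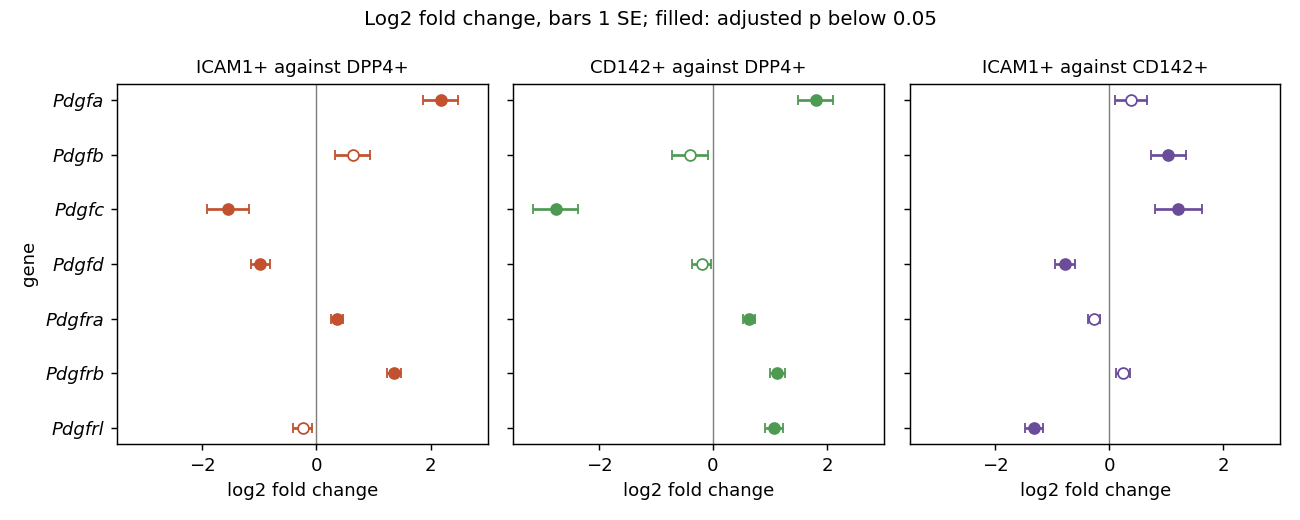
Log2 fold change of each PDGF gene (horizontal axis) in the 3 comparisons, 1 panel each, with bars of 1 SE and filled points for an adjusted p below 0.05. Pdgfa lies to the right of 0 and Pdgfc to the left in both comparisons with DPP4+ cells, with Pdgfa at 2.18 and 1.80 and Pdgfc at -1.55 and -2.75.

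Pdgfra encodes the alpha receptor (ENSMUSG00000029231, mm10 chromosome 5, 75152292 to 75198215, plus strand). Its level was 2849 (SE 0.07) in DPP4+, 3664 (SE 0.07) in ICAM1+ and 4432 (SE 0.07) in CD142+ cells. Its populations spanned 1.56-fold, the narrowest span of the 7 genes. CD142+ exceeded DPP4+ cells by 0.64 ± 0.11 on the log2 scale (1.56-fold, adjusted p = 2.67e-08), and ICAM1+ exceeded DPP4+ cells by 0.36 ± 0.11 (1.29-fold, adjusted p = 0.00369). ICAM1+ against CD142+ was not called (-0.27 ± 0.10, 95% interval -0.48 to -0.07 before adjustment, adjusted p = 0.0819). Exons of other genes lie opposite 6.21% of its exon bases, among them Gm42802, at 33.7, 53.9 and 47.4, and Gm42803, at 15.0, 14.4 and 19.2 in DPP4+, ICAM1+ and CD142+ cells.

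Pdgfrb encodes the beta receptor (ENSMUSG00000024620, mm10 chromosome 18, 61045150 to 61085061, plus strand). Its level was 753 (SE 0.09) in DPP4+, 1937 (SE 0.09) in ICAM1+ and 1648 (SE 0.09) in CD142+ cells. DPP4+ cells thus stood apart from the other populations. ICAM1+ exceeded DPP4+ cells by 1.36 ± 0.13 (2.57-fold, 95% interval 2.17 to 3.05, adjusted p = 8.28e-26). CD142+ exceeded DPP4+ cells by 1.13 ± 0.13 (2.19-fold, adjusted p = 8.46e-18), and ICAM1+ against CD142+ was not called (0.23 ± 0.12, 95% interval -0.01 to 0.47, adjusted p = 0.296). Of 13 markers of mural cells, such as Rgs5 and Cspg4, 8 were called higher and 1 lower in ICAM1+ than in DPP4+ cells, beside 12.4% and 12.0% of all genes. In CD142+ against DPP4+ cells 5 were higher and 0 lower (beside 10.1% and 8.91%), and in ICAM1+ against CD142+ cells 8 were higher and 2 lower (beside 3.77% and 5.28%). Their median log2 fold change was 1.68, 0.50 and 1.06 in these comparisons. Their summed level was 3320 in DPP4+, 11971 in ICAM1+ and 7108 in CD142+ cells, with none at 0. Much of the sum in CD142+ cells came from Notch3 (379 in DPP4+, 3887 in ICAM1+ and 2444 in CD142+ cells) and Abcc9 (696, 855 and 1640). These were picked after their values were seen, for their rise from DPP4+ to CD142+ cells. The other 11 summed to 2244, 7229 and 3024 in DPP4+, ICAM1+ and CD142+ cells. Their smaller rise to CD142+ cells follows from that choice. The part of mural cells in the Pdgfrb values was not tested.

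Pdgfrl encodes a protein that resembles the outer part of the PDGF receptors and has no kinase domain (ENSMUSG00000031595, mm10 chromosome 8, 40926212 to 40990785, plus strand). Its level was 1312 (SE 0.11) in DPP4+, 1109 (SE 0.11) in ICAM1+ and 2764 (SE 0.11) in CD142+ cells. It was highest in CD142+ cells, unlike Pdgfrb. CD142+ exceeded DPP4+ cells by 1.07 ± 0.16 (2.11-fold, adjusted p = 4.28e-10), and ICAM1+ stood 2.49-fold below CD142+ cells (-1.32 ± 0.16, adjusted p = 3.97e-14). ICAM1+ against DPP4+ was not called (-0.24 ± 0.16, 95% interval -0.56 to 0.07, adjusted p = 0.302).

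To compare genes with each other, levels were divided by the kilobases of annotated exon. Of the ligand sum per kilobase, 176 in DPP4+, 141 in ICAM1+ and 166 in CD142+ cells, Pdgfd made up 77.0%, 48.6% and 70.9%. Pdgfd was the ligand gene of the highest level per kilobase in each population on this scale. The share of Pdgfa was 5.89% in DPP4+, 33.2% in ICAM1+ and 21.7% in CD142+ cells. Pdgfc held 9.84%, 4.18% and 1.54% and Pdgfb 7.27%, 14.1% and 5.85% in the same order. In DPP4+ cells Pdgfa was the lowest of the ligand genes, at 10.4 per kilobase, whereas in ICAM1+ and CD142+ cells it was second to Pdgfd, at 46.9 and 36.1. These orders depend on the length used: per kilobase of the longest coding transcript, Pdgfa (71.1) passed Pdgfd (69.2) in ICAM1+ cells. The ratio of Pdgfa to Pdgfd per kilobase was 0.0764 in DPP4+, 0.684 in ICAM1+ and 0.306 in CD142+ cells, and its change does not depend on length. Its log2 value was higher by 3.16 ± 0.35 in ICAM1+ and by 2.0 ± 0.35 in CD142+ than in DPP4+ cells, with the SE of both genes taken as independent.

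**Figure D3:**
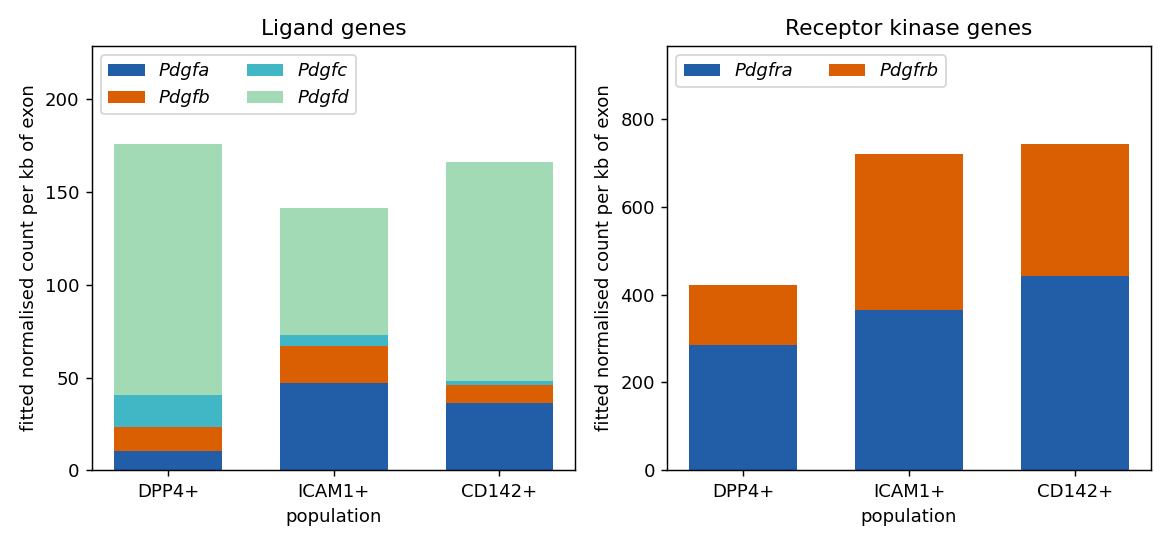
Level per kilobase of annotated exon, stacked by gene, of the 4 ligand genes and of the 2 receptor genes in each population. The ligand bars reach 176, 141 and 166 and the receptor bars 422, 719 and 743 in DPP4+, ICAM1+ and CD142+ cells, and Pdgfd is the tallest ligand segment in each.

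The receptor genes together were at 422 per kilobase in DPP4+, 719 in ICAM1+ and 743 in CD142+ cells. Pdgfrb made up 32.6%, 49.2% and 40.5% of that sum. The ratio of Pdgfra to Pdgfrb per kilobase was 2.07 in DPP4+, 1.03 in ICAM1+ and 1.47 in CD142+ cells. It was lower by -1.0 ± 0.16 on the log2 scale in ICAM1+ and by -0.49 ± 0.16 in CD142+ than in DPP4+ cells, and by -0.51 ± 0.16 in ICAM1+ than in CD142+ cells. The near equality in ICAM1+ cells held for the annotated exons only, since per kilobase of the longest coding transcript Pdgfra was at 536 and Pdgfrb at 357. Pdgfrl was at 420, 355 and 884 per kilobase of exon in DPP4+, ICAM1+ and CD142+ cells, and its ratio to Pdgfra was 1.48, 0.971 and 2.0. With the longest coding transcript Pdgfrl was at 848, 716 and 1786, above Pdgfra in each population.

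For each PDGF gene, the 3 genes with the nearest pair of fold changes against DPP4+ cells were named, leaving out predicted genes and those with a mean under 100. Nearness is the distance on the log2 scale over 3 populations, and many genes lie near small fold changes. Nearest to Pdgfa were Adamts4 (distance 0.05), Cxcl9 and Slc1a3. Nearest to Pdgfb were Ankrd44 (0.09), Tmem131l and Esam, the last an endothelial marker of the list above. Pdgfc had Olfml2a (0.12), Sytl2 and, farther off, Nav3 (0.49), and Pdgfd had Lynx1 (0.02), Sord and B3gnt9. Pdgfra had Bmf (0.0095), Ttll5 and Ddit3. Pdgfrb had Plekhg2 (0.02), the antisense gene Nespas, uncertain without strand, and Tpx2. Pdgfrl had Pdlim2 (0.10), Ism1 and Tpbgl.

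**Figure D4:**
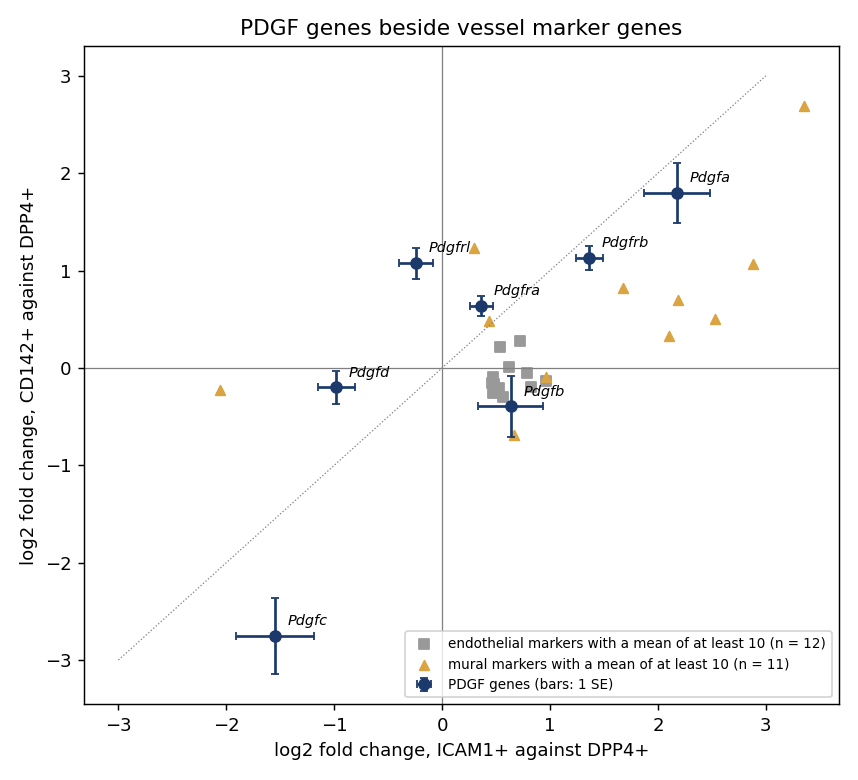
Log2 fold change in CD142+ against DPP4+ cells (vertical) over that in ICAM1+ against DPP4+ cells (horizontal) for the 7 PDGF genes, with bars of 1 SE, and, without bars, for endothelial (squares) and mural (triangles) marker genes with a mean of at least 10. Both axes use the DPP4+ libraries and the dotted line marks equal values; Pdgfa lies at 2.18 and 1.80, Pdgfc at -1.55 and -2.75, and Pdgfrl at -0.24 and 1.07.

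Other genes of the pathway were counted in 3 lists of 52 measured genes in all, also chosen with earlier results of these data known. Of these, 50 had a mean of at least 100, beside 7952 of all 20655 genes. The shares of all genes given here are therefore not matched for level and serve for scale only. In ICAM1+ against DPP4+ cells 28 of the 52 were called (53.8%), in CD142+ against DPP4+ cells 25 (48.1%), and in ICAM1+ against CD142+ cells 7 (13.5%), beside the 24.4%, 19.0% and 9.05% of all genes given above. Among 15 genes that process or bind the ligands, 3 were called higher and 6 lower in ICAM1+ than in DPP4+ cells. All genes gave 12.4% and 12.0% there. In CD142+ against DPP4+ cells 3 were higher and 5 lower (beside 10.1% and 8.91% of all genes). In ICAM1+ against CD142+ cells 2 were higher and 3 lower (beside 3.77% and 5.28%). Pcsk6, a convertase that trims secreted precursors, was lower in ICAM1+ (-2.79 ± 0.14, adjusted p = 1.87e-90) and in CD142+ (-2.59 ± 0.14, adjusted p = 1.35e-78) than in DPP4+ cells. Furin, a convertase of the same family, was not called in these comparisons (0.02 ± 0.11 and -0.12 ± 0.11). Plau, the urokinase that can cut latent PDGF-D, was lower in ICAM1+ (-2.36 ± 0.53, adjusted p = 9.13e-05) and in CD142+ cells (-1.81 ± 0.53, adjusted p = 0.00499) than in DPP4+ cells. Plat, the tissue plasminogen activator that cuts latent PDGF-C, was lower in ICAM1+ (-1.31 ± 0.10, adjusted p = 4.33e-38) and in CD142+ (-0.90 ± 0.10, adjusted p = 2.93e-18) than in DPP4+ cells. Furin and Plat were named after their values were seen. Nrp1, a co-receptor that binds several growth factors, was higher in ICAM1+ (1.58 ± 0.15, adjusted p = 8.09e-23) and in CD142+ (1.95 ± 0.15, adjusted p = 8.88e-35) than in DPP4+ cells. Between ICAM1+ and CD142+ cells, the protease inhibitor Serpine2 (1.40 ± 0.22, adjusted p = 3.59e-08) and the co-receptor Nrp2 (0.64 ± 0.15, adjusted p = 0.000336) were higher in ICAM1+ cells. Lox, a lysyl oxidase, was lower there (-0.74 ± 0.12, adjusted p = 7.95e-08).

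Of 21 genes that relay the receptor signal, 7 were called higher and 3 lower in ICAM1+ than in DPP4+ cells. All genes gave 12.4% and 12.0% there. In CD142+ against DPP4+ cells 6 were higher and 3 lower (beside 10.1% and 8.91% of all genes). In ICAM1+ against CD142+ cells 1 was higher, Stat5a, and 0 were lower. That is 4.76% of the list called, beside 9.05% of all genes, a share that rests on 1 gene. At an unadjusted p below 0.05 the list gave 5 of 21, beside 2900 of 15848 over all genes tested. Stat5a, a transcription factor activated by phosphorylation, was higher in ICAM1+ (1.10 ± 0.15) and in CD142+ (0.56 ± 0.15) than in DPP4+ cells, and in ICAM1+ than in CD142+ cells (0.54 ± 0.15, adjusted p = 0.00550). The adaptor Nck2 (1.03 ± 0.21 and 0.63 ± 0.21) and Pik3r1, a regulatory subunit of PI3-kinase (0.87 ± 0.13 and 0.83 ± 0.13), were called higher in ICAM1+ and in CD142+ than in DPP4+ cells. Other relay genes went the other way. Pik3r2, another such subunit, was at 493 in DPP4+, 276 in ICAM1+ and 348 in CD142+ cells. Stat5b was at 716, 550 and 568 and Akt1 at 1847, 1350 and 1454 in the same order. Pik3r2, Stat5b and Akt1 were named after their values were seen.

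Of 16 genes that restrain the receptors or their signal, 7 were called higher and 2 lower in ICAM1+ than in DPP4+ cells. All genes gave 12.4% and 12.0% there. In CD142+ against DPP4+ cells 6 were higher and 2 lower (beside 10.1% and 8.91% of all genes). In ICAM1+ against CD142+ cells 0 were higher and 1 was lower. That is 6.25% of the list called, beside 9.05% of all genes, and rests on 1 gene too. At an unadjusted p below 0.05 it was 5 of 16, beside 2900 of 15848 over all genes tested. Ptprj, a phosphatase of the receptors, was lower in ICAM1+ (-1.83 ± 0.16, adjusted p = 4.13e-29) and in CD142+ (-1.62 ± 0.15, adjusted p = 1.04e-23) than in DPP4+ cells. Spry4, an inhibitor of the Ras pathway, was higher in both (1.81 ± 0.17 and 1.59 ± 0.17). Spry1, of the same family, was higher in both too (1.3 ± 0.14 and 1.81 ± 0.14) and was the gene below its CD142+ level in ICAM1+ cells (-0.51 ± 0.14, adjusted p = 0.00423). Exons of Gm42922 lie opposite 24.4% of the Spry1 exon bases. Spry2, of the same family and list, went the other way, at 1746 in DPP4+, 1032 in ICAM1+ and 864 in CD142+ cells. It was named after its values were seen.

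**Figure D5:**
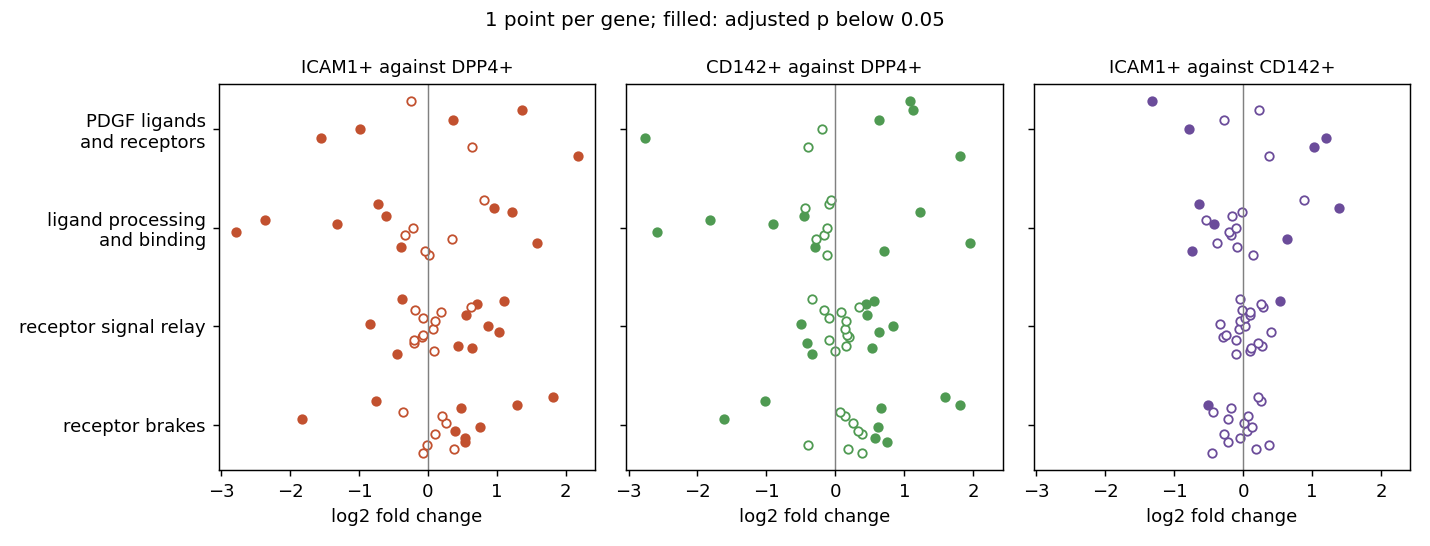
Log2 fold change of each gene (1 point per gene, filled for an adjusted p below 0.05) in the 3 comparisons, for the 7 PDGF genes and the lists of 15 processing and binding genes, 21 relay genes and 16 brakes. Filled points of the 52 listed pathway genes number 28 and 25 in ICAM1+ and CD142+ against DPP4+ cells and 7 in ICAM1+ against CD142+ cells.

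The genes of the sorted proteins were checked against the labels. Dpp4 was at 5466 in DPP4+, 89.9 in ICAM1+ and 729 in CD142+ cells, F3 at 243, 310 and 1469, and Icam1 at 1162, 7966 and 7058. Dpp4 and F3 were highest in the populations sorted for them, while Icam1 was not called different between ICAM1+ and CD142+ cells. The sign of the fold changes had been checked on Dpp4, so the order of Dpp4 is not a separate check. Markers of fibroblastic stroma (10 genes) were measured in all populations, with 9 lower in ICAM1+ (beside 12.0% of all genes) and 4 lower in CD142+ (beside 8.91%) than in DPP4+ cells. In ICAM1+ against CD142+ cells 8 were lower (beside 5.28%). Summed levels in DPP4+, ICAM1+ and CD142+ cells were 1285, 2733 and 1096 for 7 Schwann cell markers, 238, 403 and 288 for 11 immune markers, and 62.2, 383 and 164 for 7 adipocyte markers.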

How the data were processed

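Messenger RNA was sequenced from 9 libraries, 3 each of DPP4+, ICAM1+ and CD142+ cells, grouped by the population named in the labels. STAR 2.5.2a, R 3.5.1, DESeq2 and the build mm10 are named in the submitters' processing notes. How reads were assigned to genes (annotation, strand) is not given in the sources used here. Deposited were 3 tables of pairwise comparisons with 20659 entries each, of which 4 name no gene (59.6% of the summed mean) and were left out. The mean over libraries is a signal, counts divided by size factors by the authors. From DESeq2, the authors deposited log2 fold changes with their SE, the Wald score, the p-values and adjusted p-values. Means were identical in the 3 tables, and fold changes added up within 0.01 for 20612 of 20655 genes, so they were read as 1 fit over 9 libraries.

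The PDGF genes and all lists were chosen with earlier results of these data known. Calls used the deposited two-sided Wald test at an adjusted p below 0.05, over all genes with an adjusted p. Levels per population were computed from the mean and the fold changes. Their SE came from the 3 deposited SEs, with the variance of a difference taken as the sum of both populations' variances. Intervals (95%) are normal intervals from the SE and are not adjusted for the number of genes. Symbols (20618 genes), coordinates and exon lengths came from GENCODE M21, which annotates GRCm38 (mm10), and start windows from RefSeq. Named were the 7 genes, the sort genes, up to 3 called members with the largest fold change (mean of 100 or more) per list and comparison, and 3 nearest genes per PDGF gene. Scripts were tested on simulated data and used Python 3.11.15, pandas 2.3.3, numpy 2.4.6 and scipy 1.17.1. Alternatives were other thresholds (0.01, 0.1), other sets of genes for the adjustment, a minimum log2 change of 1, a Wald test against 1, re-centring on the median gene, another reference population and another gene length. Depth per library is unknown, so precision is given by the SE alone. The values of 1 listed gene are not reported here.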

Additional observations from a re-analysis of the deposited data

How the results depend on the processing

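No paired analysis was possible because values per library were not analysed here, and leaving out a library was not run for the same reason. No direction of a PDGF gene reversed under the alternatives run. Adjusted over genes of mean 100 or more, which leaves 4 of the 7 PDGF genes, 3 were called in ICAM1+ against DPP4+, 3 in CD142+ against DPP4+ and 2 in ICAM1+ against CD142+ cells. With an absolute log2 fold change of at least 1, ICAM1+ against DPP4+ kept 3 PDGF genes, and the pathway genes called were 10 for ICAM1+ and 8 for CD142+ against DPP4+ and 1 for ICAM1+ against CD142+ cells. With the Wald test set against an absolute log2 change of 1, the PDGF genes called were 1, 1 and 0 (2, 2 and 1 at an unadjusted p below 0.05) and the pathway genes 5, 5 and 0 (7, 6 and 0 unadjusted) in the same order. At an adjusted p of 0.01, ICAM1+ against CD142+ kept 2 PDGF genes. Shares of all genes called at these alternative settings are not given here. The counts therefore cannot be read against a background. Re-centring left all 21 tests of PDGF genes on the same side of the threshold. At an adjusted p of 0.1 Pdgfra was called in ICAM1+ against CD142+ cells. Pdgfc lost its call in that comparison when adjusted over every gene. The level per kilobase moved by more than 1 SD between libraries (the SE times the square root of 3 libraries) for 14 of 21 values with the longest coding transcript, so orders between genes are less firm than differences between populations.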

Other observations

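Other receptors of the PDGF receptor class and their ligands were measured in the same libraries, 6 genes, of which 3 were called in ICAM1+ against DPP4+, 2 in CD142+ against DPP4+ and 3 in ICAM1+ against CD142+ cells, beside 24.4%, 19.0% and 9.05% of all genes tested. Kitl, the ligand of Kit, was at 696 (SE 0.12) in DPP4+, 1544 (SE 0.12) in ICAM1+ and 1089 (SE 0.12) in CD142+ cells. It was called higher in ICAM1+ (1.15 ± 0.17, adjusted p = 7.44e-10) and in CD142+ (0.65 ± 0.17, adjusted p = 0.00177) than in DPP4+ cells, and in ICAM1+ than in CD142+ cells (0.50 ± 0.17, adjusted p = 0.0408). Kit itself was at 44.4, 87.1 and 43.5 in DPP4+, ICAM1+ and CD142+ cells and was called higher in ICAM1+ than in DPP4+ cells (0.97 ± 0.31, adjusted p = 0.0102) and than in CD142+ cells (1.0 ± 0.31, adjusted p = 0.0177).

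Il34, a ligand of the macrophage receptor Csf1r, was at 122 in DPP4+, 62.8 in ICAM1+ and 33.0 in CD142+ cells, and was called lower in ICAM1+ (-0.96 ± 0.31, adjusted p = 0.0101) and in CD142+ (-1.89 ± 0.32, adjusted p = 6.54e-08) than in DPP4+ cells. Csf1, the other ligand of that receptor, was not called in any of the 3 comparisons (0.32 ± 0.16, 0.15 ± 0.16 and 0.17 ± 0.16). Csf1r was at 90.0, 143 and 80.4 and was called higher in ICAM1+ than in CD142+ cells (0.83 ± 0.28, adjusted p = 0.0390). Flt3l was not called (0.70 ± 0.51, 0.95 ± 0.50 and -0.25 ± 0.47), with levels of 13.1, 21.2 and 25.2. Kit, Il34, Csf1 and Flt3l lie outside the rule for named genes and were named after their values were seen.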
